A study of Mus musculus with 8 samples.

Results

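Control-only promoter peaks are myogenin ChIP-seq peaks that were called in differentiating myoblasts without bexarotene, had no peak overlapping them by at least 1 bp in bexarotene-treated cells, and had their center within 1 kb of the transcription start site (TSS) of a protein-coding transcript. The peaks were thus selected on the called positions of both myogenin lists, and 1161 of the 5912 control myogenin peaks met the rule. C2C12 cells, a mouse myoblast line derived from the C3H strain, were placed in low-serum differentiation medium for 24 h either untreated (Ctl, 0 nM) or with 50 nM bexarotene (Bex), an agonist selective for the retinoid X receptor (RXR), and both conditions shared the same medium and genetic background. Myogenin and the histone acetyltransferase p300 were each immunoprecipitated in 1 library per condition, and these 4 of the 8 samples in the series are the ones examined. The comparison addresses where at promoters myogenin was detected in ordinary differentiation but not in the presence of the RXR ligand. Since each list comes from 1 library of 1 cell line, a peak called in 1 condition alone is a difference between those libraries, and no replicate error can be given.

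Myogenin is a muscle-specific basic helix-loop-helix transcription factor that pairs with an E-protein and binds E-boxes, of which the forms CAGCTG and CACCTG are typical of myogenic factors. It acts in terminal differentiation, when myoblasts leave the cell cycle, fuse and build sarcomeres. Promoters of broadly expressed genes are commonly CpG islands that carry GC boxes, CCAAT boxes and ETS sites close to the TSS, while p300 acetylates histones and marks active promoters and enhancers. RXR is a nuclear receptor that pairs with other receptors of its family, such as the retinoic acid receptors.

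The bexarotene myogenin list held 6642 peaks, and merging the lists gave 9553 regions, of which 30.6% were called only in control. Being called only in control applied to 1161 of the 1428 control peaks within 1 kb of a TSS, or 81.3%, and to 49.4% of control peaks at any distance. Since the rule selects on exactly this contrast, these shares describe the selection and support nothing further. The lists give positions and no tag counts or scores, so the depth behind a peak is unknown and the length of the called interval is the only measure of its size. The labelled antibody was checked on muscle genes. Of 46 sarcomere and creatine kinase genes, 37.0% had a control and 56.5% a bexarotene myogenin peak within 10 kb of a TSS, against 12.2% and 11.1% of all protein-coding genes and 0.276% and 0.552% of olfactory receptor genes.

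A sequence was printed for each of several consensus elements to show the kinds of promoter DNA found under control-only promoter peaks. Each run is 120 bases around a peak center from the plus strand of mm9, taken at the longest suitable peak of a named or listed gene whose window touches no annotated exon, and the capitals mark the element. The E-box CAGCTG lies beside GC boxes in the window of Kdm1b (chr13:47138714-47138833), where another gene starts slightly closer. That site reaches beyond 50 bp from the center, so this peak counts as one with no E-box in the shares given further on. The E-box CACCTG lies in the window of Cdkn1a (chr17:29234418-29234537). The GC box GGGCGG is marked at Lsm14b (chr2:179759036-179759155), the CCAAT box at Ddx42 (chr11:106077902-106078021) and the ETS core CCGGAA at Fnbp4 (chr2:90586168-90586287). Ddx56 (chr11:6167864-6167983) holds TGACGT, the core of a cyclic AMP response element, and Arid3a (chr10:79390165-79390284) holds GCATGCG, the NRF1 core. AAGATGG, the YY1 core, is read on the minus strand at Hist2h3b (chr3:96072361-96072480), and so is the Runx core TGTGGT at P4hb (chr11:120435006-120435125). TGACTCA, the bZIP site of AP-1 factors, lies at Dstn (chr2:143740610-143740729).
Kdm1b: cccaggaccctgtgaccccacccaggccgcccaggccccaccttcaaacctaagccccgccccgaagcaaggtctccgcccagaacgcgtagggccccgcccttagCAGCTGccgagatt
Cdkn1a: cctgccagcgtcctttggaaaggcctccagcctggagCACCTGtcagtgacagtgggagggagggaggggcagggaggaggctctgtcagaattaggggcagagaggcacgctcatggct
Lsm14b: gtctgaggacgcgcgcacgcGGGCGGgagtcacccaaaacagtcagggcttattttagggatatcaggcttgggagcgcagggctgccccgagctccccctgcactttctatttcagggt
Ddx42: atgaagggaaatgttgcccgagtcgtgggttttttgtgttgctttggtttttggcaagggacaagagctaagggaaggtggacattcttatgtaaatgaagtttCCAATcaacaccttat
Fnbp4: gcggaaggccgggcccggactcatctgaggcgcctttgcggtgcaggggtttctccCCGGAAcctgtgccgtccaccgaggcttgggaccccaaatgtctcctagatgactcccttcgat
Ddx56: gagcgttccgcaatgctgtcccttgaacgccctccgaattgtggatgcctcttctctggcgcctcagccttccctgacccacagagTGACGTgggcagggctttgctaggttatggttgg
Arid3a: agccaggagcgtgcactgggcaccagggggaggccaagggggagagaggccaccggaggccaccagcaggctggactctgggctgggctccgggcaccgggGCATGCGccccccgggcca
Hist2h3b: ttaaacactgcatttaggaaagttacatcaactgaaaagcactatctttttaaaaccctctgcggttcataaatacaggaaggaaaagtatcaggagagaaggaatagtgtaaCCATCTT
P4hb: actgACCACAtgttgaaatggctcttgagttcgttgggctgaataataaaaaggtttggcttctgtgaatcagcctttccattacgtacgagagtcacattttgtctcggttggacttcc
Dstn: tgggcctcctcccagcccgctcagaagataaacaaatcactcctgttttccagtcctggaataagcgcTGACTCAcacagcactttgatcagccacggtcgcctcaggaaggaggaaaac

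Most control-only promoter peaks were as small as the peak caller allowed. The smallest control interval was 172 bp, and 847 of the 1161 peaks had that length, 73.0% (95% Wilson interval 70.3 to 75.4). Their upper quartile was 216 bp and the longest was 795 bp. Promoter peaks shared with bexarotene were longer, with a median of 215 bp and 46.4% at the smallest length, while peaks called only in control beyond 1 kb of a TSS had 77.4% and bexarotene-only promoter peaks 78.7% at the smallest length of their list. These intervals and those that follow cover counting error over peaks and not variation between cultures. Length comes from the same lists that chose the peaks, so these values are a description.

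The distance to the nearest bexarotene peak varied widely, and since overlapping peaks were removed by the rule it is given as a description. The gap to the nearest bexarotene myogenin peak had a median of 30.5 kb, with quartiles of 3.05 and 118 kb. A bexarotene peak lay within 200 bp of 34 control-only promoter peaks (2.93%), within 1 kb of 179 (15.4%) and within 50 kb of 682 (58.7%). The closest were at Myo10, which encodes an unconventional myosin, with a gap of 7 bp, at Gtpbp1 with 11 bp and at Fnip1 with 12 bp. On the other side of the overlap rule, the smallest overlaps that made a promoter peak shared were 4 bp at Tcp11l2, 5 bp at Orai1, a calcium channel subunit, and 24 bp at Scx. At the distance rule, the last centers inside lay 997 bp from the TSS at Herc4 and at Pknox1 and 1000 bp at Sdc1, and the first outside lay at 1002 bp at Atp5b, 1004 bp at Adamts6 and 1007 bp at Ctdsp2.

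Control-only promoter peaks lay mostly downstream of the start site. Their centers were downstream of the nearest TSS in 696 cases, 59.9% (57.1 to 62.7), and upstream in 465. In the shared promoter peaks 43.4% (37.6 to 49.4) were downstream, a difference of 16.5 percentage points (95% interval of the difference 9.86 to 22.9). In the bexarotene-only promoter peaks 54.4% were downstream, which differed from control-only promoter peaks by 5.60 points (0.629 to 10.6). The side of the TSS was not used in choosing the peaks.

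The bin from 100 to 200 bp downstream of the TSS held 173 control-only promoter peaks, 14.9% of them and the most of any 100-bp bin. The same bin was the fullest in bexarotene-only (11.7%) and shared (8.99%) promoter peaks. The bins on either side held 77 and 91. Just upstream of the TSS the 100-bp bin held 44. The interval itself reached the TSS in 122 peaks, 10.5% (8.87 to 12.4), against 19.9% (15.5 to 25.05) of shared and 12.3% (9.80 to 15.2) of bexarotene-only promoter peaks. By annotation at the center, 510 peaks (43.9%) lay in an intron, 341 (29.4%) outside genes, 174 (15.0%) in a 5′ UTR, 129 (11.1%) in coding sequence and 7 (0.603%) in a 3′ UTR.

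**Figure D1:**
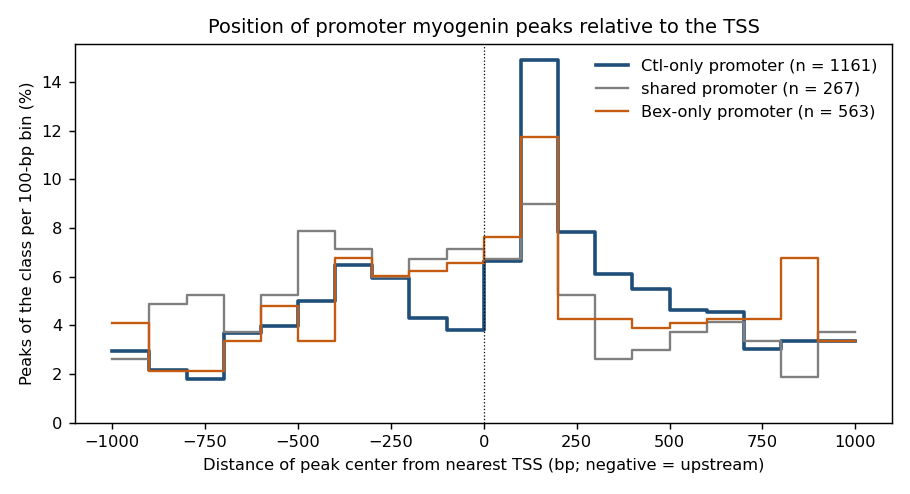
Share of promoter myogenin peaks (y axis, % of the class) in each 100-bp bin of distance from the nearest TSS (x axis, bp, negative upstream), for 1161 control-only, 267 shared and 563 bexarotene-only peaks. The control-only line is highest at 100 to 200 bp downstream, with 14.9%, as are the other lines with 11.7% and 8.99%, and falls to 3.79% in the bin just upstream of the TSS.

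The median GC content under control-only promoter peaks equaled that of windows centered on start sites, although most of the peaks lay off the TSS. In 200 bp around the peak center the median GC content was 59.0% with quartiles of 50.0 and 68.0%, and 200-bp windows at 45975 distinct protein-coding TSS had the same median and quartiles. Shared and bexarotene-only promoter peaks had a median of 55.5%, and control-only peaks beyond 1 kb of a TSS had 49.0%. The ratio of observed to expected CpG had a median of 0.653 in control-only promoter peaks, 0.433 in shared, 0.554 in bexarotene-only and 0.193 in the distal control-only peaks. Within the control-only promoter peaks GC content differed by side, with a median of 63.5% downstream and 53.0% upstream of the TSS. Peaks 100 to 200 bp downstream had a median of 68.0%, against 59.0% in windows centered 150 bp downstream of every TSS. For peaks 300 to 400 bp upstream it was 53.5%, against 49.0% in windows centered 350 bp upstream.

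Genes with a control-only promoter peak nearly all had a CpG-rich start site. Of 1147 such genes, 1074 or 93.6% (92.1 to 94.9) had an observed over expected CpG ratio of at least 0.6 in 200 bp around a TSS, against 57.1% of all protein-coding genes, 86.7% (83.7 to 89.2) of genes with a bexarotene-only and 77.7% (72.2 to 82.3) of genes with a shared promoter peak. Put the other way, 8.41% (7.94 to 8.91) of the CpG-rich genes had a control-only promoter peak, and 0.760% (0.605 to 0.955) of the remaining genes did. For shared promoter peaks the corresponding shares were 1.58% and 0.604%. The share of all 22372 protein-coding genes with a control-only promoter peak was 5.13%.

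E-boxes were uncommon under control-only promoter peaks. CAGCTG or CACCTG, counted on both strands so that CACCTG also stands for CAGGTG, occurred within 50 bp of the center of 203 peaks, 17.5% (15.4 to 19.8). Windows of the same length at all protein-coding TSS held one in 13.3%, so that the control-only promoter peaks were higher by 4.20 points (2.10 to 6.51). Shared promoter peaks held one in 44.2% (38.4 to 50.2) and bexarotene-only promoter peaks in 25.4% (22.0 to 29.2). The difference of the control-only promoter peaks from these classes was -26.7 points (-33.1 to -20.4) and -7.91 points (-12.2 to -3.80). Distal control-only peaks held one in 34.7%, a difference of -17.2 points (-20.3 to -14.0).

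The palindromic core CAGCTG made up a smaller part of the E-boxes under control-only promoter peaks than under the other classes. It accounted for 108 of their 233 sites, 46.4% (40.1 to 52.8), against 74.1% (66.9 to 80.2) in shared, 61.1% (53.8 to 68.1) in bexarotene-only promoter and 67.4% (64.0 to 70.7) in distal control-only peaks. CAGCTG alone was found in 8.70% of control-only promoter peaks and in 6.69% of TSS windows, and CACCTG in 9.91% and 7.05%. Of the 203 peaks with an E-box, 28 held more than 1, or 13.8% (9.72 to 19.2), while 32.2% (24.4 to 41.1) of the shared promoter peaks with an E-box did. In bexarotene-only promoter peaks this share was 21.0% (15.1 to 28.4) and in distal control-only peaks 20.8% (17.8 to 24.2). Both of these intervals overlap that of the control-only promoter peaks. Any CANNTG occurred in 34.4% of control-only promoter peaks and 31.9% of TSS windows, and the interval of that difference, -0.206 to 5.32 points, includes 0.

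E-boxes were only weakly centered. In control-only promoter peaks CAGCTG and CACCTG sites together numbered 0.212 per 100 bp up to 40 bp from the center and 0.134 per 100 bp at 240 to 400 bp. In shared promoter peaks the density fell from 0.637 to 0.129 and in bexarotene-only promoter peaks from 0.331 to 0.144, so all classes had a like level away from the center. Among control-only promoter peaks an E-box was found in 19.1% (15.8 to 22.96) of those upstream and 16.4% (13.8 to 19.3) of those downstream of the TSS, and in 15.9% (12.3 to 20.4) of those longer than the smallest length against 18.1% (15.6 to 20.8) of those at it.

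**Figure D2:**
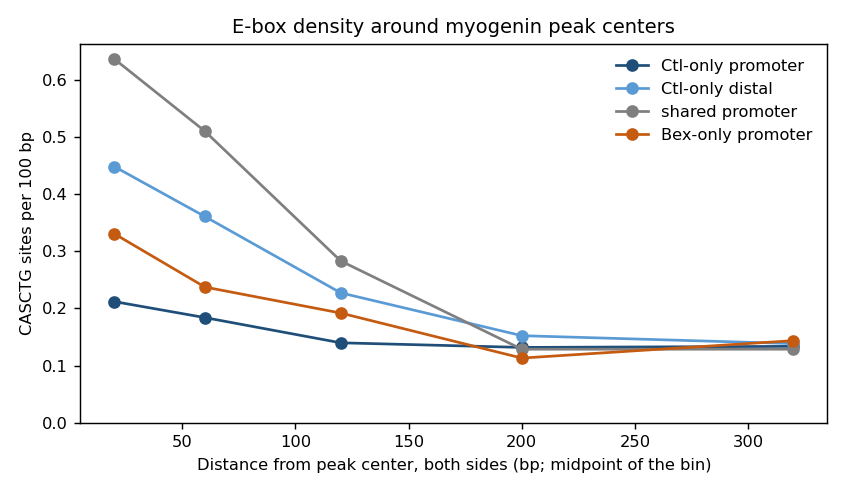
Density of CAGCTG and CACCTG sites on both strands (y axis, sites per 100 bp) against distance from the peak center (x axis, bp, both sides summed, each point at the middle of its bin) in 4 classes of myogenin peaks. Nearest the center the control-only promoter line starts lowest, at 0.212, and the shared promoter line highest, at 0.637, and from 160 bp outward all 4 lie between 0.113 and 0.152.

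GC boxes were more frequent under control-only promoter peaks than under the other peak classes. GGGCGG, the Sp and Klf factor site, was present on one or the other strand up to 100 bp from the center in 330 peaks, 28.4% (25.9 to 31.1). It was found in 15.4% (11.5 to 20.2) of shared, 20.1% (16.97 to 23.6) of bexarotene-only promoter and 6.48% of distal control-only peaks. The difference was 13.1 points (7.64 to 17.7) from the shared and 8.35 points (4.03 to 12.4) from the bexarotene-only promoter peaks. Windows centered on all TSS held a GC box more often, in 38.5%. GC boxes went with position, occurring in 32.6% (29.2 to 36.2) of the downstream and 22.2% (18.6 to 26.1) of the upstream control-only promoter peaks.

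Several other elements of core promoters were less common under control-only promoter peaks than in windows centered on start sites, and the E2f core was not. Most of the peaks lay off the TSS, so the peaks and these windows differ in position. CCAAT, the NF-Y site, occurred in 14.0% against 24.5% of TSS windows, and CCGGAA, the ETS core, in 8.96% against 14.0%. TGACG, the Atf and Creb core, occurred in 11.9% against 18.4%, GCATGCG in 0.947% against 2.92% and AAGATGG in 3.36% against 5.32%. TTCCCGC, the E2f core, was found in 4.82% and 4.30%, with an interval of the difference from -0.579 to 1.93 points. In shared promoter peaks 2.996% (1.53 to 5.80) held the ETS core, and in bexarotene-only promoter peaks 11.2% (8.84 to 14.1), with an interval of the difference from -5.48 to 0.713 points for the latter.

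Since most control-only promoter peaks lay off the TSS, the 173 peaks of the most filled bin were also set beside windows centered 150 bp downstream of every TSS. These peaks held a GC box in 46.8% (39.5 to 54.2) and the windows in 27.4%, a difference of 19.4 points (12.1 to 26.9). The ETS core was found in 16.8% of the peaks and 8.43% of the windows, and CCAAT in 4.62% and 16.6%. TGACG was found in 15.0% and 13.1%, with an interval of the difference from -2.62 to 8.04 points. An E-box was found in 13.9% of the peaks and 14.9% of the windows, with an interval of the difference from -5.44 to 4.89 points. The median GC content was 68.0% in the peaks and 59.0% in the windows. The windows cover every start site, and CpG-rich ones were not taken separately. A CpG-rich TSS was found at 93.6% of genes with a control-only promoter peak and 57.1% of all genes. Its part in these differences was not tested. For the 75 peaks 300 to 400 bp upstream, beside windows centered 350 bp upstream, the GC box was found in 21.3% and 16.01% and the E-box in 16% and 11.4%, and both intervals of the difference include 0. The intervals for the ETS core, CCAAT and TGACG at this distance include 0 as well.

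Sites of the AP-1, Runx, Tead and nuclear receptor families stood near their share in TSS windows. The bZIP site TGACTCA, which reads TGAGTCA on the other strand, occurred in 2.84% (2.03 to 3.96) of control-only promoter peaks, 2.61% of TSS windows, 9.36% of shared promoter peaks and 11.03% of distal control-only peaks. TGTGGT, the Runx core, occurred in 8.70% of control-only promoter peaks, 13.9% of bexarotene-only and 13.1% of shared promoter peaks. GGAATG, the Tead core, occurred in 8.35%, 12.6% and 11.2% of the same classes. AGGTCA, the core bound by RXR partners and other nuclear receptors, was found in 9.99% of control-only and 10.5% of bexarotene-only promoter peaks, a difference of -0.488 points (-3.71 to 2.44), and in 8.87% of TSS windows. In TSS windows the Runx core occurred in 9.87% and the Tead core in 7.85%. The longer Mef2 consensus was found in 8 control-only promoter peaks, 0.689% against 0.215% of TSS windows, a difference of 0.474 points (0.131 to 1.14). It was found in 1.07% of bexarotene-only promoter, 0.375% of shared promoter and 0.966% of distal control-only peaks. The intervals of the difference from these classes, -1.66 to 0.503, -1.43 to 1.05 and -0.946 to 0.480 points, include 0.

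**Figure D3:**
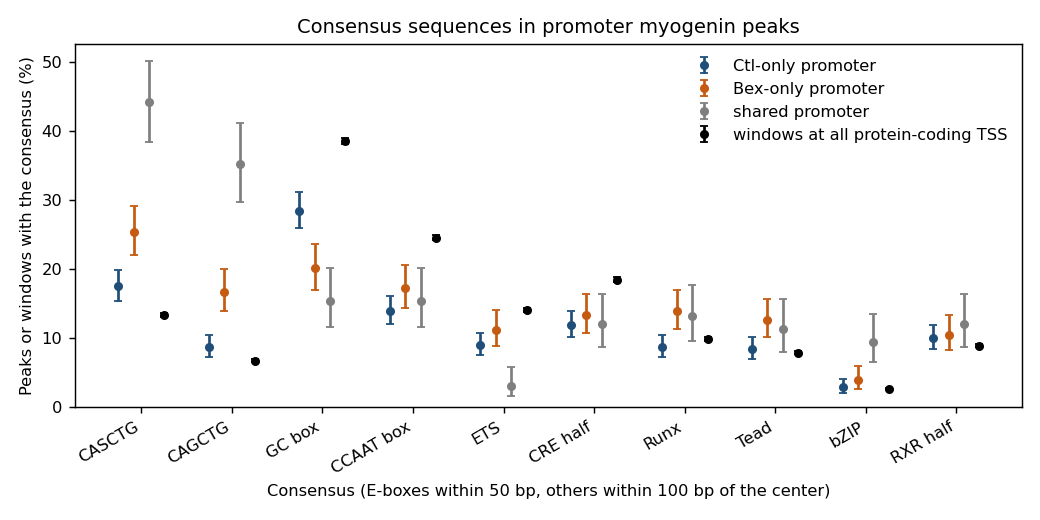
Share of promoter myogenin peaks or TSS windows with each consensus (y axis, %) for 10 consensus sequences (x axis), within 50 bp of the center for E-boxes and 100 bp for the others; points are shares and bars 95% Wilson intervals. For the GC box the control-only class stands at 28.4% against 15.4% in shared promoter peaks, and for the E-box CAGCTG at 8.70% against 35.2%; shares from windows of different length are not to be ranked against each other.

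Few control-only promoter peaks carried p300. A control p300 peak overlapped 87 of them, 7.49% (6.12 to 9.15), against 33.0% of all control myogenin peaks. With only p300 intervals longer than the smallest, the share of control-only promoter peaks was 3.88%. A bexarotene p300 peak overlapped 43, or 3.70% (2.76 to 4.95), against 23.7%. Shared promoter peaks overlapped control p300 in 24.0% (19.2 to 29.4) and bexarotene-only promoter peaks in 12.8% (10.3 to 15.8), and the difference of the control-only promoter peaks from these was -16.5 points (-22.1 to -11.5) and -5.30 points (-8.61 to -2.29). Distal control-only peaks overlapped control p300 in 29.3%. The p300 lists come from libraries that the choice of peaks did not use.

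Control-only promoter peaks with p300 in control overlapped bexarotene p300 less often than did such peaks of the other myogenin classes. Of the 87 peaks with control p300, 19 also overlapped bexarotene p300, 21.8% (14.5 to 31.6), against 50.0% of 64 shared and 50.3% of 515 distal control-only peaks. The differences were -28.2 points (-42.2 to -12.8) and -28.5 points (-37.0 to -17.8). Among bexarotene-only promoter peaks the share was 36.1% of 72, a difference of -14.3 points (-28.0 to -0.199). Over all control myogenin peaks with control p300 it was 60.5% of 1949. The bexarotene p300 list was shorter than the control one, with 9154 against 22051 peaks, and its part in these shares was not tested. These shares stand beside other myogenin peaks and not beside control p300 peaks in general. Of all 2379 protein-coding genes with control p300 within 1 kb of a TSS, 1849 had such a peak without overlapping bexarotene p300. Of the 352 among them with a control-only promoter peak, 268 did. Another 24 control-only promoter peaks (2.07%) overlapped p300 in bexarotene alone, and 1050 (90.4%) overlapped neither list. Of all control myogenin peaks 3.77% and 63.3% did so.

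The 19 control-only promoter peaks with p300 in both conditions lay at genes of varied function. Among them were Actb and Tuba1a, which encode cytoplasmic actin and tubulin, Ankrd1, a sarcomeric stress-response protein, Sgcb, a sarcoglycan of the muscle membrane, Sqle, an enzyme of sterol synthesis, Rpl10a, Hnrnph1, Kpnb1, Snx7, Agbl5 and Trim37. The peak at Ankrd1 was 218 bp long, centered 68 bp upstream of the TSS and held an E-box, and the nearest bexarotene myogenin peak was 9.15 kb away. The peak at Actb was 172 bp long and centered 160 bp downstream. Of the 19, 8 held an E-box within 50 bp of the center and 6 a GC box within 100 bp, and these genes were looked up after the overlap was known. Over all control-only promoter peaks an E-box was found in 22.5% (15.7 to 31.1) of those with p300 in either list and 16.95% (14.8 to 19.3) of those without.

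Counting p300 peaks within 500 bp gave higher shares. A control p300 peak lay that near 21.4% (19.2 to 23.9) of them, against 25.6% (22.1 to 29.3) of bexarotene-only promoter, 34.5% (29.0 to 40.3) of shared promoter and 40.6% of all control peaks. For bexarotene p300 the share was 13.4% (11.5 to 15.4), beside 13.5% (10.9 to 16.6) in bexarotene-only promoter peaks, and the intervals overlapped. It was higher in shared promoter peaks, 23.2% (18.6 to 28.6), and in all control peaks, 29.5%. By gene, 352 of the 1147 genes with a control-only promoter peak had a control p300 peak within 1 kb of a TSS, 30.7% (28.1 to 33.4), and 191 had a bexarotene one, 16.7% (14.6 to 18.9). Over all protein-coding genes the shares were 10.6% and 5.23%. Genes with a bexarotene-only promoter peak were close to the control-only ones, with 30% (26.5 to 33.8) and 18.5% (15.6 to 21.8), and genes with a shared promoter peak had 40% (34.2 to 46.1) and 24.6% (19.8 to 30.2).

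**Figure D4:**
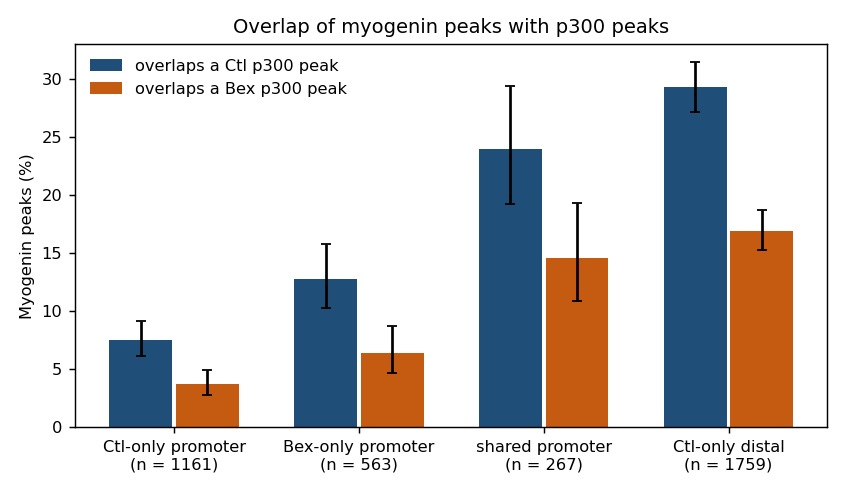
Share of myogenin peaks that overlap a p300 peak by at least 1 bp (y axis, %) in 4 classes (x axis), for the Ctl and the Bex p300 list; bars are shares and whiskers 95% Wilson intervals. Control-only promoter peaks have the lowest bars in both lists, 7.49% and 3.70%.

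The 3 longest control-only promoter peaks lay at Hsp90aa1, Slc25a39 and Ube2d3. Hsp90aa1, which encodes the inducible cytosolic chaperone Hsp90 alpha, had the longest, 795 bp at chr12:111933718-111934512 with its center 46 bp downstream of the TSS in the 5′ UTR. It overlapped control p300 and not bexarotene p300, held 3 GC boxes and no E-box, and a bexarotene myogenin peak lay 782 bp away. Slc25a39, a mitochondrial carrier gene, had a peak of 788 bp at chr11:102268973-102269760 centered 107 bp upstream. Ube2d3, a ubiquitin-conjugating enzyme gene, had a peak of 740 bp centered 75 bp downstream with an E-box near its center and a second one farther out. Mex3d, which encodes an RNA-binding protein, followed with 658 bp and P4hb, protein disulfide isomerase, with 646 bp. The last of the 10 longest, 548 bp, lay at Fnbp4 (chr2:90585954-90586501). Of the 10 longest peaks, Ube2d3 alone had an E-box within 50 bp of the center, and Hsp90aa1 alone overlapped p300.

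Muscle genes were counted in 5 lists, beside 5.13% of all protein-coding genes, 8.41% of those with a CpG-rich TSS and 0.760% of the others. Over all genes, 1.16% had a shared and 2.68% a bexarotene-only promoter peak. None of 17 myogenic regulator genes had a control-only promoter peak, which allows a share of up to 18.4% (Wilson). Of 46 sarcomere and creatine kinase genes 4 had one, 8.70% (3.43 to 20.3), while 9 or 19.6% had a bexarotene-only and 3 or 6.52% a shared promoter peak. A CpG-rich TSS was found at only 10 of these 46 genes, of which 3 had a control-only promoter peak, 30% (10.8 to 60.3), as did 1 of the other 36, 2.78% (0.492 to 14.2). Of 19 fusion and adhesion genes 3 did, 15.8% (5.52 to 37.6). Of 20 acetylcholine receptor and calcium-handling genes 2 did, 10% (2.79 to 30.1), and 4 or 20% had a shared promoter peak. A CpG-rich TSS was found at 6 of these 20, and 1 of the 6 and 1 of the other 14 had a control-only promoter peak. Of 7 E-protein and Id genes 1 did, 14.3% (2.57 to 51.3). The intervals of these short lists are wide.

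The sarcomere genes were Ttn, Unc45b, Tpm2 and Myl4. At Ttn, which encodes the giant spring protein titin, the peak was 172 bp long at chr2:76820820-76820991, centered 302 bp upstream of the TSS with an E-box, and a bexarotene peak lay 1.66 kb away. At Unc45b, a myosin chaperone of muscle, a peak of 259 bp at chr11:82724305-82724563 held 1 E-box near its center and was centered 321 bp upstream. At Tpm2, beta-tropomyosin, the peak was centered 95 bp downstream of the TSS and a bexarotene peak lay 310 bp away. At Myl4, the embryonic and atrial myosin light chain, it was 473 bp upstream with no E-box, closer to the TSS of Cdc27, 202 bp downstream of that one, and the nearest bexarotene peak was 26.4 kb away. None of these peaks overlapped p300.

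Among membrane and synapse genes, Ncam1, the neural cell adhesion molecule of fusing myoblasts, had a peak at chr9:49605820-49606034 that was centered 907 bp downstream of the TSS, held an E-box and overlapped control p300 only. Sgcb had a peak at chr5:74038449-74038620, 417 bp downstream, with 1 E-box and 1 GC box and with p300 in both lists. Itgb1, the integrin beta-1 chain, had a peak 726 bp downstream with no E-box. Chrna1 and Chrnb1, subunits of the muscle acetylcholine receptor, had peaks 884 and 703 bp downstream, and a bexarotene myogenin peak lay 824 and 591 bp away from them. At the acetylcholine receptor genes the bexarotene library therefore had a peak close by that the overlap rule did not join. Tcf3, an E-protein that pairs with myogenin, was the single gene of 7 E-protein and Id genes. It had a peak of 379 bp at chr10:79895405-79895783 centered 772 bp downstream with no E-box, and another at chr10:79896468-79896639, upstream of the TSS, which overlapped control p300.

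Of the 6 RXR and RAR receptor genes, Rxrb and Rarg had a control-only promoter peak, 33.3% (9.68 to 70.0) beside 5.13% of all genes, and all 6 had a CpG-rich TSS, for which the share was 8.41%. At Rxrb the peak was 172 bp long at chr17:34169428-34169599, centered 168 bp downstream of the TSS. At Rarg it was 172 bp at chr15:102088155-102088326, centered 293 bp upstream. Neither peak held an E-box near its center or overlapped p300.

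Of 21 acetyltransferase and deacetylase genes, Ep300, Crebbp and Hdac5 had control-only promoter peaks, 14.3% (4.98 to 34.6) beside 5.13% of all genes. Ep300, which encodes p300 itself, had a peak of 220 bp at chr15:81415174-81415393 centered 497 bp upstream of the TSS with an E-box, and a bexarotene peak lay 1.74 kb away. Crebbp, its paralog, had one of 172 bp at chr16:4212485-4212656 centered 652 bp downstream in an intron, with no E-box and the nearest bexarotene peak 72.8 kb away. Hdac5, a class IIa deacetylase that restrains Mef2, had one of 225 bp centered 303 bp upstream. Jund was the single gene of 16 AP-1, Runx and Tead genes, with a bexarotene peak 938 bp away.

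Cell cycle genes with a control-only promoter peak were 5 of 60, namely Cdkn1a, Cdk4, E2f1, Mcm4 and Mcm7. Their share of 8.33% (3.61 to 18.1) was near the 8.41% of genes with a CpG-rich TSS, to which 54 of the 60 belonged. Cdkn1a encodes the Cdk inhibitor p21 that rises as myoblasts leave the cell cycle. Its peak was 235 bp long at chr17:29234361-29234595, 674 bp upstream of the TSS, with the E-box printed above, and the nearest bexarotene peak was 18.6 kb away. Cdk4 had a peak of 234 bp centered 30 bp upstream of the TSS, and E2f1 one of 172 bp centered 557 bp upstream with a bexarotene peak 1.14 kb away. Neither held an E-box.

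RNA processing genes were counted in a spliceosome and a helicase list. Of 77 spliceosome and hnRNP genes 15 had one, 19.5% (12.2 to 29.7), against 5.13% of all genes and 8.41% of those with a CpG-rich TSS, to which 76 of the 77 belonged. Of this list 1.299% had a shared and 5.19% a bexarotene-only promoter peak, against 1.16% and 2.68% of all genes. The 15 genes included Hnrnpa1, Hnrnpa3, Hnrnpf, Hnrnph1, Hnrnph3 and Hnrnpl, Srsf5 and Srsf10, which bind pre-mRNA and guide splice site choice, and U2af2, Sf3a2 and Snrpd3, core components of the splicing machinery. Their 18 peaks held 0 E-boxes within 50 bp of the center, which allows a share of up to 17.6% (Wilson) beside 17.5% over all control-only promoter peaks, and 9 held a GC box, beside 28.4%. The longest were 394 bp at Lsm14b, 382 bp at Prpf40b and 285 bp at Snrpd3, the last of these closer to the TSS of another gene. Of 54 RNA helicase genes 8 had a control-only promoter peak, 14.8% (7.70 to 26.6), among them Ddx42, Ddx54 and Ddx56.

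Of 57 chromatin remodeller and demethylase genes 10 had a control-only promoter peak, 17.5% (9.82 to 29.4), beside 5.13% of all genes and 8.41% of those with a CpG-rich TSS. Shared promoter peaks were also frequent in this list, at 7.02% against 1.16% of all genes. Bexarotene-only promoter peaks lay at 3.51%, against 2.68%. The 10 genes included Smarca4 and Chd4, the ATPases of the BAF and NuRD complexes, and the histone demethylase genes Kdm1b, Kdm2a, Kdm4c and Kdm6a. The longest, at Brd7, was 393 bp and centered 479 bp downstream of the TSS. At Kdm2a a peak of 293 bp held an E-box and 4 GC boxes, and a bexarotene peak lay 189 bp away. Of 105 polymerase, Mediator and general factor genes 9 had one, 8.57% (4.57 to 15.5), Polr2a, the largest subunit of RNA polymerase II, among them. Histone genes had 6 of 79, 7.59% (3.53 to 15.6), and both of these lists were near the share of CpG-rich genes.

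Translation genes were counted in 4 lists, beside 5.13% of all genes and 8.41% of those with a CpG-rich TSS. Of 85 cytosolic ribosomal protein genes 6 had a control-only promoter peak, 7.06% (3.28 to 14.6), and as many had a bexarotene-only promoter peak, beside 2.68% of all genes and 4.07% of the CpG-rich ones. At Rpl10a the peak was 217 bp long, centered 315 bp downstream, and overlapped p300 in both lists. Of 76 mitochondrial ribosomal protein genes 4 had one, 5.26% (2.07 to 12.8). Of 67 translation factor genes 7 had one, 10.4% (5.15 to 20.03), with the longest, 402 bp, at Eef1d, and 8 genes of this list, 11.9%, had a bexarotene-only promoter peak. Of 37 aminoacyl-tRNA synthetase genes Yars alone had one.

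Among organelle and traffic genes, 16 of 126 vesicle transport genes had a control-only promoter peak, 12.7% (7.97 to 19.6), including Rab1, Rab5a, Rab5c, Rab11b and Rab14, small GTPases that route membrane vesicles. Of 83 chaperone genes 10 did, 12.05% (6.68 to 20.8), with Hsp90aa1, Hspa4l, Cct2 and Cct3 among them. Of 25 nuclear pore genes 5 did, 20% (8.86 to 39.1), namely Nup50, Nup88, Nup98, Nup107 and Nup188. Beside these stand 5.13% of all genes and 8.41% of the genes with a CpG-rich TSS. Bexarotene-only promoter peaks lay at 7.14% of the vesicle transport, 8.43% of the chaperone and 4% of the nuclear pore genes. Of all genes 2.68% had one, and of the CpG-rich genes 4.07%. Shared promoter peaks lay at 0.794%, 1.20% and 0% of the same lists, against 1.16% of all genes.

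For 5 further lists the interval held the 5.13% of all genes and the 8.41% of CpG-rich genes. Respiratory chain and ATP synthase genes had 6 of 91, 6.59% (3.06 to 13.6), and mitochondrial import genes 3 of 22, 13.6% (4.75 to 33.3). Ubiquitin conjugation genes had 7 of 126, 5.56% (2.72 to 11.02), autophagy and lysosome genes 2 of 50, 4% (1.10 to 13.5), and proteasome genes 1 of 50, 2.00% (0.354 to 10.5). Ndufaf3, an assembly factor of respiratory complex I, had a peak 217 bp downstream of the TSS with 2 E-boxes near its center.

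Some large gene families had few or no control-only promoter peaks. The Zfp zinc finger genes had 9 of 365, 2.47% (1.303 to 4.62), below the share of all genes although 67.1% of them had a CpG-rich TSS, where the share was 3.67% (1.94 to 6.83). None of 1087 olfactory receptor genes had one, which allows a share of up to 0.352%, and none of 320 vomeronasal receptor or 92 keratin genes did, which allows up to 1.19% and 4.01%. Of these families 99.1%, 99.4% and 94.6% of the genes lacked a CpG-rich TSS, and over all such genes the share was 0.760%.

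**Figure D5:**
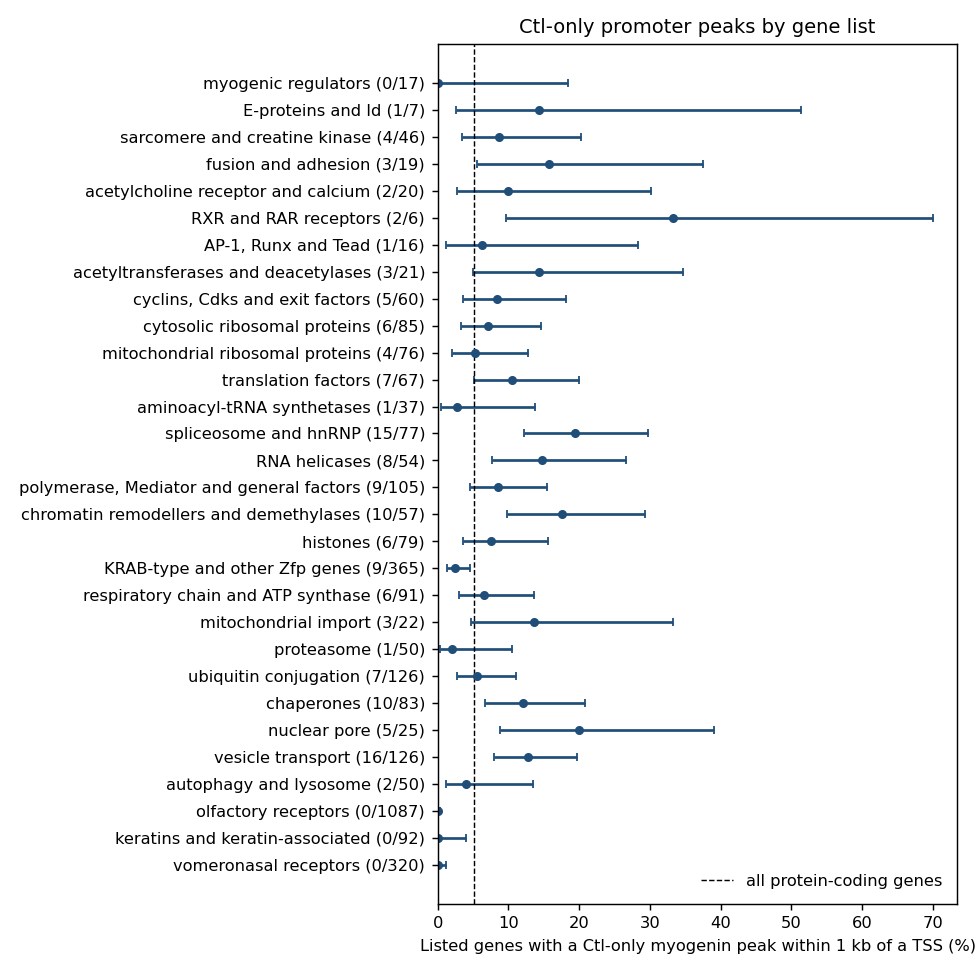
Share of the genes of each list with a control-only myogenin peak within 1 kb of a TSS (x axis, %), with the number of genes with a peak and of genes measured beside each list name; points are shares, bars 95% Wilson intervals and the dashed line the 5.13% of all protein-coding genes. The spliceosome and nuclear pore lists stand at 19.5% and 20%, and the olfactory receptor list at 0.

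A promoter usually held 1 control-only peak, and 144 genes had more than 1. Of these, 12 had at least 3. Zfp36l2, an mRNA decay factor, had 4 peaks from 117 and 158 bp downstream to 353 and 776 bp upstream of the nearest TSS, the closest bexarotene peak lay 196 kb away, and the peak at 158 bp overlapped p300 in both lists. B230312A22Rik also had 4, spread over several start sites. Rhoa, a GTPase of the actin cytoskeleton, had peaks 422 bp upstream, where the TSS of another gene was closer, and 356 and 843 bp downstream, with bexarotene peaks 1.73 to 3.03 kb away. Midn had 3, of which those of 382 and 377 bp were well above the smallest length. Nearby peaks of a gene are not independent, and 144 of the 1161 peaks were within 1 kb of the TSS of more than 1 gene.

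Of the control-only promoter peaks 142, or 12.2%, lay within 1 kb of start sites on both strands. Among all distinct TSS 10.4% had a start site on the other strand within 1 kb, a share of start sites and not of peaks.

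Many of the genes with a control-only promoter peak had a bexarotene myogenin peak elsewhere in the neighborhood. A bexarotene myogenin peak lay within 1 kb of a TSS of 15.7% (13.7 to 17.9) of the 1147 genes, within 10 kb of 33.7% (31.0 to 36.4) and within 50 kb of 57.1% (54.2 to 59.9). Over all protein-coding genes these shares were 3.72%, 11.1% and 28.7%. The positions of bexarotene peaks entered the rule that chose the control-only peaks, so the values of this paragraph are a description. Of the 1147 genes 139 had a bexarotene-only promoter peak as well, which is 12.1% of them and 23.2% of the 600 genes with such a peak, and 54 had a shared one, 4.71% of them and 20.8% of 260. The remaining 492 genes, 42.9%, had no bexarotene myogenin peak within 50 kb.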

How the data were processed

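The authors aligned myogenin reads with BWA-MEM and p300 reads with Bowtie to mm9, discarded duplicates (Picard), and ran HOMER peak calling in its factor style separately for every library, so the factors differ in aligner. The deposited lists hold only chromosome, start and end, with the start counted from 0 and no tag counts or other score. Positions are printed counted from 1. Of 8 samples, input and H3K27me3 were not used here.

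Peaks overlapping by at least 1 bp were called shared. Distances were taken from the peak center to 45975 distinct TSS of protein-coding transcripts in the GENCODE vM1 annotation (the study's methods used RefSeq), and a gene counted when a TSS lay within 1 kb. Sequences came from the matching genome, and consensus sequences were counted on both strands. Shares carry 95% Wilson intervals and differences Newcombe intervals, which cover counting error only; with 1 library per condition no p-value is given. The members and gene lists were chosen with earlier results of these data known. Named genes are the 10 longest peaks, listed genes by peak length (up to 8 for a muscle list, 3 for another), genes with 3 or more peaks, and 3 peaks on each side of either threshold; other listed genes, those with p300 in both lists, the windows off the TSS and the CpG ratio of 0.6 were chosen after the data were seen. Alternatives changed the overlap rule, TSS distance and catalog, motif window, peak length and p300 rule. Python 3.11.15, numpy 2.4.6, pandas 2.3.3, scipy 1.17.1, pysam 0.24.0 and matplotlib 3.10.9 were used, and the functions were tested on simulated data.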

Additional observations from a re-analysis of the deposited data

How the results depend on the processing

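Over 8 results and their alternatives, 50 of 67 values stayed within the counting interval, or within 1.5 times for counts, and 17 moved. The values are counts, shares and a median of the control-only promoter peaks alone. A change in the direction of a difference between classes was therefore not assessed. The number of control-only promoter peaks was 773 with a TSS within 500 bp and 314 with only intervals longer than the smallest, which left 334 genes. The share with an E-box was 29.4% within 100 bp of the center, 28.9% over the whole interval, 8.70% for CAGCTG alone and 34.4% for any CANNTG. The GC box share was 16.3% within 50 bp of the center, 35.96% for a TSS within 500 bp, 25.1% for a TSS within 2 kb and 31.5% in the longer intervals. Median GC content was 63.5% for a TSS within 500 bp and 56.0% within 2 kb. Counting a p300 peak within 500 bp raised the control and bexarotene shares to 21.4% and 13.4%, and counting only p300 intervals longer than the smallest lowered them to 3.88% and 1.38%. A reciprocal overlap rule kept all 1161 peaks and gave 1213, and calling a peak shared when a bexarotene peak lay within 200 bp kept 1127. No paired analysis was possible because there was 1 library per condition, and leaving out a replicate was impossible for the same reason. A missing peak shows only that the caller's threshold was not reached at a depth that is unknown here.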

Other observations

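Control-only promoter peaks were unevenly spread over the chromosomes. Of the protein-coding genes of chromosome 15, 12.7% (95% Wilson interval 10.5 to 15.2; 101 of 797) had one, and of those of chromosome 10, 11.96% (10.1 to 14.1; 125 of 1045), against 5.13% of all genes. Chromosome 11 had 8.11%, chromosome 19 7.32% and chromosome 17 7.06%. Among chromosomes with more than 100 protein-coding genes, the lowest shares were 1.74% (1.26 to 2.40) on chromosome 7 and 0.322% (0.110 to 0.942; 3 of 932) on the X chromosome. On chromosomes 15 and 10 the other promoter peaks counted were above their share of all genes as well. Shared promoter peaks lay at 3.39% of chromosome 15 genes and 3.06% of chromosome 10 genes, bexarotene-only ones at 6.02% and 4.69%, and control p300 promoter peaks at 19.6% and 14.1%, against 1.16%, 2.68% and 10.6% of all genes. Control p300 promoter peaks were also above chromosome 10 on chromosomes 1, 3 and 18, with 14.6%, 14.3% and 15.5%. Input reads by chromosome were not used here.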
